A study of Homo sapiens with 47 samples.

Results

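The comparison set 4 RNA-seq libraries of the HAP1 clone C4 against 8 libraries of the clones C1 and C2 (4 each), 12 of the 47 libraries of the series. C4, C1 and C2 were chosen by their NUP58 mRNA: among the 6 NUP58-mutated HAP1 clones, C4 lost the least and C1 and C2 the most. The question was which other mRNAs differed between a mild and a strong loss. HAP1 is a near-haploid human line derived from chronic myeloid leukaemia, and all 3 clones carry the genotype label NUP58 mutated. They were made with Cas9 and 2 guides, aimed at exons 4 and 13 of NUP58, and the RNA was taken at the first passage. C2 lacks a large stretch around exon 4, as the study describes, whereas C1 and C4 carry small insertions or deletions. By the study's RNA data, all C1 and C2 transcripts of NUP58 ended at exon 13, those of C2 also without exon 4. In C4, some transcripts skipped exon 4. The clones thus differed in the structure of NUP58 transcripts as well as in their level, and FPKM per gene does not separate these. The lines outside the comparison were HAP1 WT (unedited), EV (transfected with an empty Cas9 vector) and the clones C3, C5 and C6, with 4 libraries each. C4 is 1 single-cell-derived clone and the other side holds 2, so that a difference owed to the NUP58 level and one particular to a clone cannot be told apart.

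The nuclear pore complex (NPC) is the channel in the nuclear envelope through which proteins and RNA pass between nucleus and cytoplasm. NUP58 lies in the central channel together with NUP54 and NUP62, and the Phe-Gly repeats of such nucleoporins are bound by karyopherins, the importins and exportins that carry cargo. The targeted exon 4 is shown because 1 of the guides was aimed at it. In the GRCh38 genome it spans chr13:25312883-25313032 on the plus strand, is 150 nucleotides long and therefore keeps the reading frame when skipped. It is printed with 20 bases of intron on either side (chr13:25312863-25313052, reference sequence, not that of a clone), with the exon in capitals.
NUP58 exon 4: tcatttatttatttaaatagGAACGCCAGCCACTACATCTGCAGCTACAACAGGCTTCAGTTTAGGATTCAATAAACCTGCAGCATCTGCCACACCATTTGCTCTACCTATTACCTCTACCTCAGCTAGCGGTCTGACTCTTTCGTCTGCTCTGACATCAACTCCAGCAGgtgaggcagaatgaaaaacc

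The values are fragments per kilobase of transcript, scaled to the reads of a library (FPKM). Summed FPKM ran from 606914 to 654081 over the 12 libraries, 18217 to 18899 genes were above 0, and the relative depth, read from the lowest values and set against the first WT library, was 0.799–1.14 in C4 and 0.759–0.992 in C1 and C2. The HAP1 markers BCR, ABL1, CRKL and GAB2 were at 1 FPKM or more in all 12 libraries, with a summed level of 68.4–96.2 FPKM in C4 and 78.0–86.1 FPKM in C1 and C2. All 10 haematopoietic markers (PTPRC, SPI1 and others) stayed below 1 FPKM, 6 of them at 0 in every library, although the line comes from a leukaemia. Of 10 markers of HCT116 epithelium, the other cell line of the series, 6 were below 1 FPKM in all 12 libraries, CEACAM5 and CEACAM6 were at 0 throughout and CDX2 was present at 2.44–5.11 FPKM. ASNS, an amino acid starvation target, stood far higher in C1 replicate 2, C2 replicates 1 and 2 and C4 replicate 2 (245–451 FPKM) than in the other 8 libraries (32.5–89.2 FPKM). The replicates of a clone are experimental replicates by the study's account. P-values measure the spread between such libraries. In the main fit C1 and C2 form 1 group, so that spread also holds the difference between these clones.

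NUP58 mRNA (ENSG00000139496.15, chr13:25301524-25365390, plus strand) chose the groups and is described without a test. Its level was 25.4, 22.6, 28.0 and 25.9 FPKM in C4 replicates 1 to 4. C1 had 11.3, 9.10, 10.2 and 9.96 FPKM and C2 had 7.98, 10.7, 11.5 and 8.99 FPKM. Every C4 library therefore lay above every C1 and C2 library, at 25.5 ± 2.24 FPKM (SD, n = 4) against 9.97 ± 1.22 FPKM (SD, n = 8), a difference of 1.27 on the log2(FPKM + 1) scale, on which all differences below are given. WT and EV held 41.3 ± 8.07 and 40.3 ± 4.57 FPKM (SD, n = 4), so that C4 sat between the controls and all other clones. C5 and C6 had 15.6 ± 5.48 and 15.4 ± 2.37 FPKM, and C3, at 12.8 ± 1.95 FPKM, was the clone nearest to C1 and C2. Neighbours in this order overlapped in their libraries within the controls and among C5, C6, C3, C1 and C2, whereas C4 overlapped with none.

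**Figure D1:**
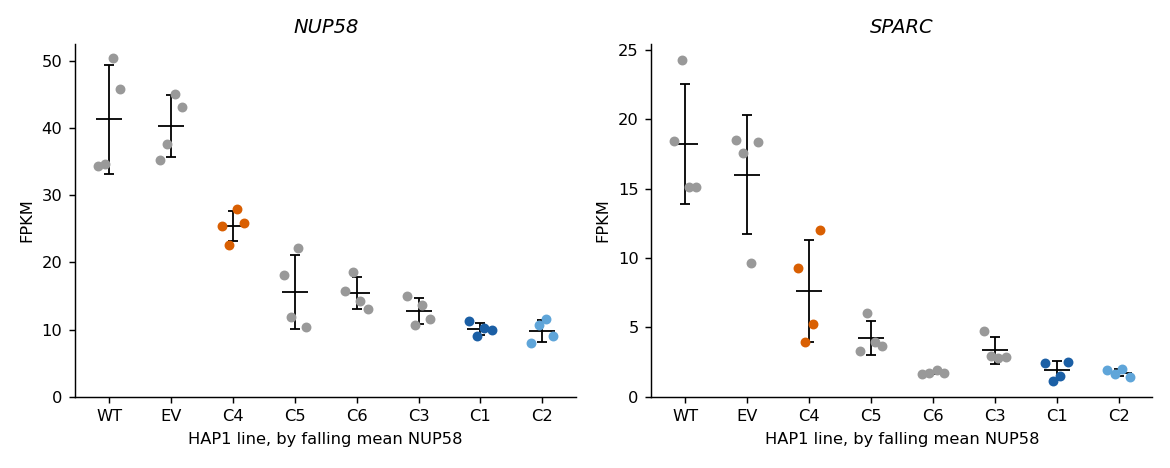
FPKM of NUP58 and of SPARC in the libraries of the 8 HAP1 lines, ordered by falling NUP58; each point is a library and the bars give the mean ± SD (n = 4 per line). C4 lies between the controls and the other clones for NUP58 (25.5 FPKM) and, by its mean and with overlapping libraries, for SPARC (7.62 FPKM).

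Few mRNAs other than NUP58 separated C4 from C1 and C2. Of 13043 genes with a mean of at least 1 FPKM, limma called 8 (0.0613% of those tested) at an adjusted p under 0.05 and a fold over 2, 7 higher in C4 (0.0537%) and 1 lower (0.00767%). One of the 8 was NUP58 itself. The other 7 were HCLS1, TCEAL9, ZNF256, SPARC, IAH1 and ZFR2, higher in C4, and HPGD, lower. Of these 7, TCEAL9 and SPARC averaged at least 1 FPKM in both groups, as did 12751 of the genes tested. HCLS1, ZNF256, IAH1 and ZFR2, below 1 FPKM in C1 and C2, and HPGD, below it in C4, entered the test only through the group where they were high and so had to differ; the number called is no support for a difference between the groups. At any fold, 12 genes (0.092%) had an adjusted p under 0.05, and none of the 12 overlapped between the groups. In all, 80 genes (0.613%) had no overlap between the 4 and the 8 libraries. At an unadjusted p under 0.05 there were 495 genes (3.8%). With the replicate number as a block, 15 genes were called (0.115%), 11 higher (0.0843%) and 4 lower (0.0307%). A test with unequal variances and no moderation called 4 (0.0307%), and leaving out 1 library gave between 4 genes (without C4 replicate 1 or 4) and 15 (without C1 replicate 2), with 5 without C2 replicate 3 or 4. Without the 4 libraries highest in ASNS it was 17. In fits of 8 libraries, C4 against a single clone, 6 genes (0.0459%) against C1 and 12 (0.0922%) against C2 had an adjusted p under 0.05 (limma). C1 and C2, alike in NUP58, differed from each other in 9 (0.069%, limma). That count came from a fit of all 12 libraries with a mean per clone, so the counts are not like for like.

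**Figure D2:**
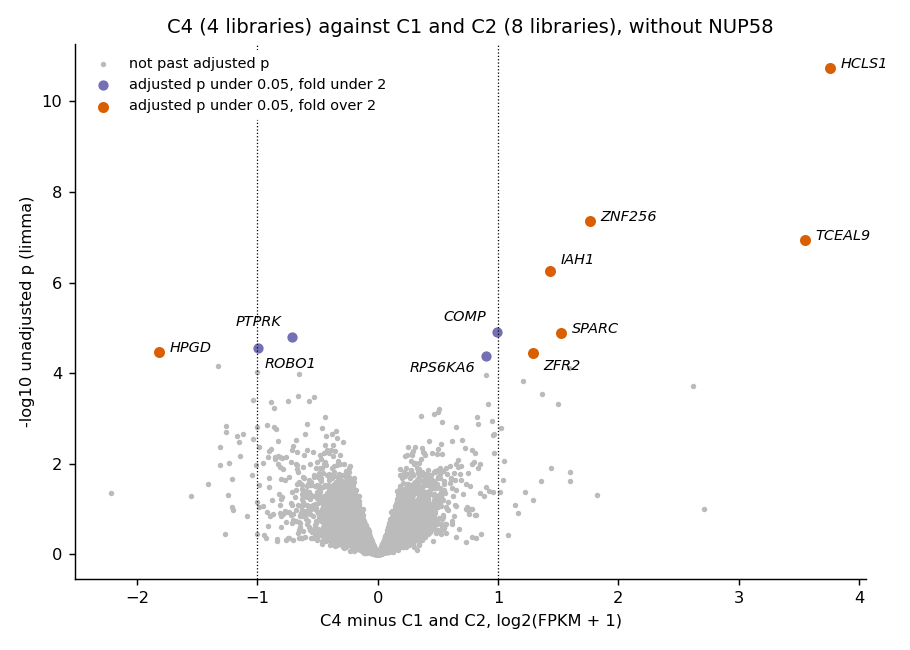
Difference C4 minus C1 and C2 on the log2(FPKM + 1) scale (x axis) against the unadjusted p on a −log10 scale (y axis) for the tested genes other than NUP58. HCLS1 (3.76) and TCEAL9 (3.55) lie farthest to the right and HPGD (−1.82) is the called gene on the left.

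HCLS1, an actin-binding relative of cortactin best known from blood cells, showed the largest difference (chr3:121631399-121660927, minus strand). C4 had 23.4, 19.9, 22.6 and 26.1 FPKM in its 4 libraries, whereas C1 lay between 0.978 and 1.51 FPKM and C2 between 0.158 and 0.689 FPKM. The groups were far apart: HCLS1 was higher in C4 by 3.76 (SE 0.197, adjusted p = 2.42e-07, limma), and remained so in 28 of 28 alternative settings. These settings share libraries. HCLS1 averaged 0.818 FPKM in C1 and C2 and passed the filter through C4 alone, so the p-value is no separate support. The controls were on the side of C1 and C2, at 0.697 FPKM in WT and 0.298 FPKM in EV, and C5 was intermediate at 7.07 FPKM. In such bulk libraries, more cells with the mRNA and more mRNA per cell cannot be told apart.

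TCEAL9, of the transcription elongation factor A-like family on chromosome X (chrX:103356489-103358462, plus strand), behaved in a similar way. Its level was 57.4, 45.3, 53.6 and 66.6 FPKM in C4, 5.25, 5.92, 8.45 and 7.39 FPKM in C1 and 3.22, 1.35, 2.86 and 1.15 FPKM in C2. C4 was above both clones by 3.55 (SE 0.363, adjusted p = 0.00038, limma), in 28 of 28 settings as well. C1 exceeded C2 by 1.35, short of the threshold (adjusted p = 0.062, limma). WT (5.80 ± 0.465 FPKM, SD, n = 4) was close to C1, and EV had only 0.216 FPKM, so that the 2 controls differed from each other in TCEAL9.

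ZNF256, which encodes a KRAB zinc-finger protein (chr19:57940833-57947706, minus strand), was higher in C4 by 1.76 (SE 0.166, adjusted p = 0.00019, limma). It averaged 0.205 FPKM in C1 and C2 and passed the filter through C4 alone, so the p-value is no separate support. The 4 C4 libraries held 3.35, 2.31, 3.54 and 3.16 FPKM and the 8 others 0 to 0.465 FPKM. These are low levels, and C3 and C6, with much less NUP58 than C4, reached 3.75 ± 1.04 and 2.63 FPKM. Without C4 replicate 1, 3 or 4 its mean was below 1 FPKM and it could not be tested. With C3 added to C1 and C2, the adjusted p of ZNF256 was 1 (difference 1.11, limma). ZFR2, a zinc-finger RNA-binding protein gene (chr19:3804024-3869038, minus strand), had 2.34, 5.92, 2.76 and 3.38 FPKM in C4 against 0.435–1.60 FPKM in the 8 others. Its difference of 1.29 (SE 0.218, adjusted p = 0.0433, limma) was just past the threshold and lost it when any library except C1 replicate 2 was left out (adjusted p 0.0633–0.208). ZFR2, too, passed the filter through C4 alone, with a mean of 0.84 FPKM in C1 and C2.

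SPARC encodes a secreted glycoprotein that binds collagen in the extracellular matrix (chr5:151661096-151686975, minus strand). C4 held 9.27, 3.94, 5.25 and 12.01 FPKM. C1 had 2.42, 1.17, 1.53 and 2.53 FPKM, and C2 had 1.92, 1.61, 2.02 and 1.43 FPKM. The lowest C4 library was thus above the highest of the 8, and SPARC was higher in C4 by 1.52 (SE 0.234, adjusted p = 0.0247, limma). WT and EV had still more, 18.2 ± 4.33 and 16.0 ± 4.28 FPKM (SD, n = 4), which made SPARC the called gene for which both controls lay on the side of C4. In the fit of all 32 HAP1 libraries SPARC fell below WT in C4 by 1.24 (adjusted p = 0.00467, limma) and in C1 and C2 by 2.76 (adjusted p = 6.67e-10, limma), the contrasts sharing the WT libraries. The means of C5 (4.25 ± 1.23 FPKM), C3 (3.34 ± 0.946 FPKM) and C6 (1.75 ± 0.103 FPKM) were all below that of C4. Single libraries overlapped, as C5 replicate 2 (6.07 FPKM) and C3 replicate 1 (4.75 FPKM) were above C4 replicate 2. On the other side, EV replicate 3 (9.62 FPKM) was below C4 replicate 4. The call was lost without C1 replicate 3, C2 replicate 1, 3 or 4, or C4 replicate 1 or 4 (adjusted p 0.0537–0.154), with a difference of 1.29 to 1.54 in each of these, and over all alternatives the adjusted p was under 0.05 in 16 of 27.

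IAH1, an esterase gene of the isoamyl acetate hydrolase family (chr2:9473658-9496543, plus strand), was higher in C4 by 1.43 (SE 0.166, adjusted p = 0.00143, limma). It averaged 0.501 FPKM in C1 and C2 and passed the filter through C4 alone, so the p-value is no separate support. C4 libraries had 2.97, 4.25, 2.41 and 2.69 FPKM and the 8 others 0.304–0.746 FPKM. WT was intermediate at 1.85 ± 0.592 FPKM, but EV had only 0.584 FPKM, while C6 (3.02 FPKM) was near the C4 mean of 3.08 FPKM and C5 (4.36 FPKM) above it. HPGD, the enzyme that inactivates prostaglandins (chr4:174490175-174523154, minus strand), was the gene called lower. Its levels were 0.910, 0.807, 0.404 and 0.906 FPKM in C4, 2.26–6.33 FPKM in C1 and 5.87–10.9 FPKM in C2, and it fell by 1.82 (SE 0.305, adjusted p = 0.0433, limma). HPGD averaged 0.757 FPKM in C4 and passed the filter through C1 and C2 alone. WT and EV (2.98 and 4.20 FPKM) were nearer to C1, and C6 was highest at 9.68 ± 0.749 FPKM. The HPGD call held without C1 replicate 2 or 3 and was lost without any one of the other 10 libraries (adjusted p 0.0537–0.193), and without the 4 libraries highest in ASNS (0.0898).

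**Figure D3:**
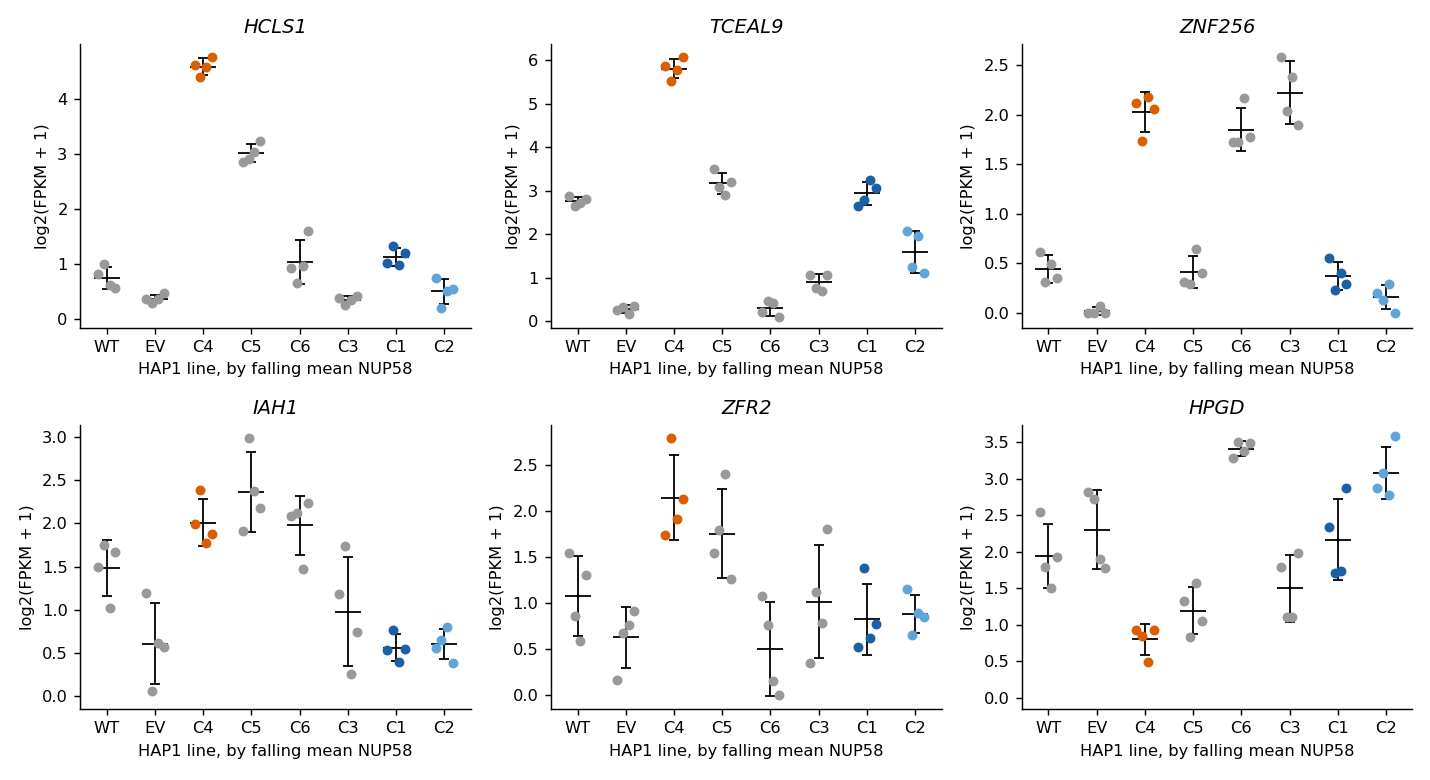
Levels of HCLS1, TCEAL9, ZNF256, IAH1, ZFR2 and HPGD in every HAP1 library on the log2(FPKM + 1) scale, with lines ordered by falling NUP58. Points are libraries and bars the mean ± SD on that scale (n = 4 per line). HCLS1 and TCEAL9 are highest in C4 (means of 23.0 and 55.7 in FPKM), with HCLS1 intermediate in C5 (mean of 7.07 FPKM). ZNF256 is also high in C3 and C6, and IAH1 in C5 and C6.

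The upstream sequences of HCLS1, TCEAL9, ZNF256 and SPARC are shown because they are the called genes most raised in C4. RefSeq (GRCh38.p14) places them at chr3:121660964-121661153 (minus strand), chrX:103356256-103356445 (plus), chr19:57947767-57947956 (minus) and chr5:151686976-151687165 (minus), from 250 to 61 bases before the start of each gene. CG dinucleotides are in capitals.
HCLS1: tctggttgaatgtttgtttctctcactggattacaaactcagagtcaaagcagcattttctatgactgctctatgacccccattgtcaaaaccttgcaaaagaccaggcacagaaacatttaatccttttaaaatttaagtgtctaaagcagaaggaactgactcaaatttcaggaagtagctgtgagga
TCEAL9: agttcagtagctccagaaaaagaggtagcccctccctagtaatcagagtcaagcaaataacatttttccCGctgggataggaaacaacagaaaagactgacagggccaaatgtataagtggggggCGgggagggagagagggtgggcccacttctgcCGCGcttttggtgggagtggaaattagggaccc
ZNF256: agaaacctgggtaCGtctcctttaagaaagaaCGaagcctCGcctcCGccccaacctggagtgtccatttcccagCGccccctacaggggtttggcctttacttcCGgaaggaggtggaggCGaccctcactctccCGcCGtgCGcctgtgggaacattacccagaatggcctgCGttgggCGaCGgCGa
SPARC: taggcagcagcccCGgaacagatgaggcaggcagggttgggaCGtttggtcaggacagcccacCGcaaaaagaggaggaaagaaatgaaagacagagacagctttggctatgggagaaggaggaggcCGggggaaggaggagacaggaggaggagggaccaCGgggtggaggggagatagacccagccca
HCLS1 has no CG in this window of 190 bases, TCEAL9 has 4, SPARC 5 and ZNF256 14. Over 27305 RefSeq promoters the median was 7, and over the 9380 that belong to tested genes it was 15. At least 4 CG were found in 63.1% of all promoters, at least 5 in 58.1% and at least 14 in 32%. Methylation was not measured, and the counts describe the reference sequence only.

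Set against WT in the fit of 32 libraries, the 7 called genes other than NUP58 fell into different classes. Over all 13180 genes of that fit, C4 differed from WT at an adjusted p under 0.05 in 135 (1.02%) and the mean of C1 and C2 in 814 (6.18%), of which 60 (0.455%) and 111 (0.842%) also passed a 2-fold difference. HCLS1 (3.83), TCEAL9 (3.05), ZNF256 (1.58) and HPGD (−1.14, adjusted p = 0.031, limma) differed from WT in C4 only. IAH1 differed in C1 and C2 only (−0.90, adjusted p = 0.0168, limma; in C4 0.53, adjusted p = 0.542). SPARC differed in both and ZFR2 in neither. With the replicate block, TCEAL9 and HPGD differed from WT in C1 and C2 too (adjusted p 0.0364 and 0.0392, limma). The WT mean lay nearer to C4 for 2 of the 7 genes (SPARC and IAH1) and the EV mean for 1 (SPARC). The means of the more strongly reduced clones lay nearer to C4 for 2 genes in C3, 5 in C5 and 2 in C6. With EV as the reference, TCEAL9 and SPARC differed in both, and the other 5 in C4 only.

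At the study's own thresholds, an unadjusted p under 0.01 and a fold over 2, 28 genes passed (0.215%), 14 higher and 14 lower in C4 (0.107% each), and 34 (0.261%) with the replicate block. For 14 of these 28 the WT mean lay nearer to C4, for 15 the EV mean, and for 13 both. A number of them were named after their values were seen. VSNL1, a neuronal calcium sensor, had 0.443–1.96 FPKM in C4, 2.68–4.63 FPKM in C1 and 4.72–8.03 FPKM in C2, with 1.12 FPKM in WT (difference −1.33, adjusted p = 0.0685, limma). It was higher still in C5 (9.06 FPKM) and C6 (14.9 FPKM). ETV1, an ETS transcription factor gene, had 2.54 ± 0.907 FPKM in C4, 7.33 ± 3.06 FPKM in C1 and C2 and 2.06 FPKM in WT, with overlap between the groups (difference −1.17, adjusted p = 0.56, limma). In VSNL1 and ETV1 the C4 mean was closer than those of C1 and C2 to WT. So was the mean of C3, the clone nearest to C1 and C2 in NUP58, at 2.21 FPKM (VSNL1) and 2.17 FPKM (ETV1). In C5 and C6, ETV1 had 12.8 and 14.3 FPKM. DLK1, an imprinted gene for a membrane protein related to Notch ligands, had its C4 mean farthest from WT. It had 70.2, 146, 90.2 and 113 FPKM in C4 and 19.9–66.3 FPKM in the 8 others, whereas WT and EV had 5.72 and 6.67 FPKM. C3 had 57.6 FPKM, but C5 and C6 were at the level of the controls (6.63 and 3.65 FPKM). Its difference of 1.37 had an adjusted p of 0.182, and 0.013 with the replicate block (limma). KIAA1324L (ELAPOR2) was likewise called with the block only, at 5.15 FPKM in C4 against 0.962 FPKM (difference 1.59, adjusted p 0.0727 without and 0.0232 with it, limma). It had 10.1 FPKM in C5, 4.33 FPKM in C6, 2.27 FPKM in EV and 0.579 FPKM in WT.

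Among the genes with an adjusted p under 0.05 were 4 with less than a 2-fold difference, also named after their values were seen. COMP, a cartilage matrix protein, had 5.72 ± 0.747 FPKM in C4 and 2.41 ± 0.584 FPKM in C1 and C2 (difference 0.99, adjusted p = 0.0247, limma). RPS6KA6, a ribosomal S6 kinase on chromosome X, had 13.4 ± 2.77 against 6.72 ± 1.37 FPKM (0.90, adjusted p = 0.045, limma). PTPRK, a receptor tyrosine phosphatase, had 4.71 ± 0.669 against 8.32 ± 0.840 FPKM (−0.71, adjusted p = 0.0256, limma). ROBO1, a receptor for SLIT guidance proteins, had 7.51 ± 1.90 against 15.9 ± 2.92 FPKM, with WT at 10.5 FPKM (−0.998, adjusted p = 0.0408, limma). In WT, RPS6KA6 (7.65 FPKM), COMP (2.72 FPKM) and PTPRK (8.98 FPKM) were on the side of C1 and C2. The 4 calls were lost on leaving out 1 library in 7 (COMP), 10 (RPS6KA6), 8 (PTPRK) and 10 (ROBO1) of 12 cases, at adjusted p up to 0.131, 0.279, 0.154 and 0.208.

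The genes whose line means ran most like those of NUP58 over the 8 lines were AKR7A2, an aldo-keto reductase (Pearson r = 0.985), EIF3M, a translation initiation factor subunit (0.981), FDPS of isoprenoid synthesis (0.966), SPARC (0.960), CPOX of haem synthesis (0.955) and LSM3, an RNA-binding Sm-like protein (0.954). These r are a description over 8 line means that share the 32 libraries, and C4, C1 and C2 are among the 8. For SPARC, r over the 5 lines outside the comparison was 0.945. These are WT, EV, C3, C5 and C6, so this r, like those over 8 lines, also reflects the gap between controls and clones. NUP58 and SPARC had 15.6 and 4.25 FPKM in C5, 15.4 and 1.75 FPKM in C6, and 12.8 and 3.34 FPKM in C3. The order of these clones thus differed between the genes. SPARC moved over a range of 2.79 between its highest and lowest line mean, whereas the others of the 12 most and least alike genes ranged over 0.228–0.554. AKR7A2, for instance, had 46.6 ± 1.52 FPKM in C4, 40.5 and 41.5 FPKM in C1 and C2 and 50.1 FPKM in WT (difference 0.18, adjusted p = 0.9997, limma). Running most opposite were ADO, a thiol dioxygenase (−0.973), ARHGAP35 (−0.966), BSDC1 (−0.956), SMG5 of nonsense-mediated decay (−0.953), CAPN15 (−0.953) and MIER3 (−0.949). SMG5 had 51.8 ± 8.84 FPKM in C4, 63.6 and 64.3 FPKM in C1 and C2 and 44.6 FPKM in WT (difference −0.31, adjusted p = 0.9997, limma). Of 13042 genes, 69 had an r of 0.9 or more and 46 of −0.9 or less. Only 7 of these genes ranged over more than 1 on the log2 scale, among them SPARC, and PLCB1, a phospholipase, in the opposite direction (3.41 FPKM in C4, 7.08 in C1, 7.58 in C2 and 1.47 in WT).

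A set of genes chosen in other lines gave a broader view. In a fit of the 12 libraries of C5, C6 and EV, which share none with C1–C4 or WT, 343 genes including NUP58 differed between the mean of C5 and C6 and EV (adjusted p under 0.05, fold over 2), 219 higher and 124 lower. In the direction of that change, C4 was less shifted than the mean of C1 and C2 for 269 of the 343 (78.4%), against 7749 of all 13286 genes of that fit (58.3%). The share was 79.0% for the genes higher in C5 and C6 and 77.4% for the lower ones. The median shift from WT was 0.431 in C1, 0.559 in C2 and 0.241 in C4, and the median difference between C4 and the mean of C1 and C2 was −0.25, against −0.0278 over all genes. C3, whose NUP58 was close to that of C1 and C2, had the smallest median shift, 0.13, and was less shifted than C1 and C2 for 287 of the 343. SYT1, a calcium sensor of synaptic vesicle release and the gene with the largest change in C5 and C6, had 33.5 FPKM in C4 and 52.3 FPKM in C1 and C2 (difference −0.77, adjusted p = 0.9997, limma). Of the 343 genes, 5 had an adjusted p under 0.05 in the direct comparison of C4 with C1 and C2 (12 of all genes, 0.092%), and 11 with the replicate block (28 of all genes, 0.215%). The 5 were NUP58, which chose the groups, SPARC, which was less shifted in C4, and HCLS1, TCEAL9 and IAH1. HCLS1, TCEAL9 and IAH1 lay farther in the direction of C5 and C6 in C4 than in C1 and C2. For TCEAL9 that direction came from C5 (8.1 FPKM), as C6 (0.237 FPKM) was near EV (0.216 FPKM), with WT at 5.80 FPKM.

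**Figure D4:**
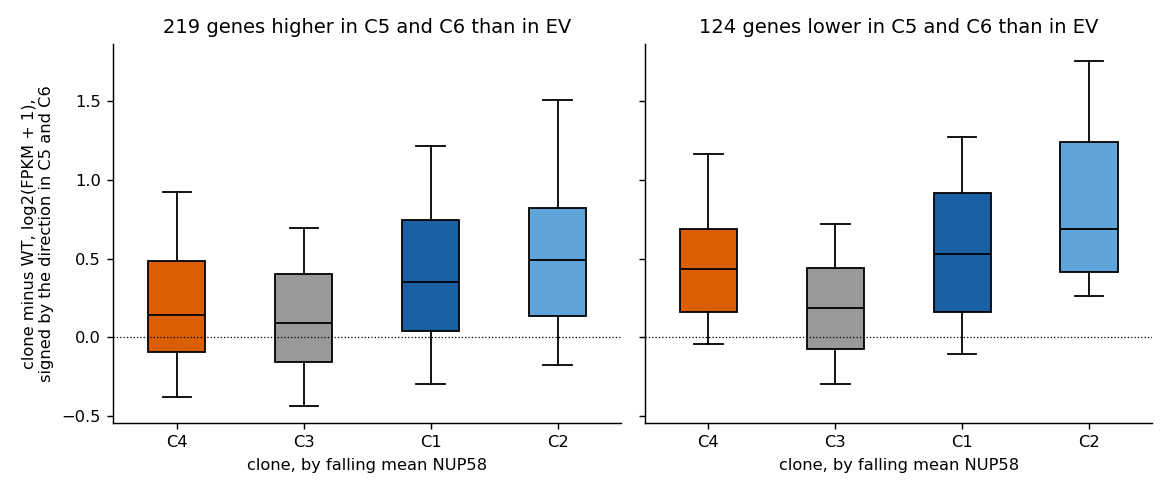
Shift from WT, on the log2(FPKM + 1) scale and in the direction of the change in C5 and C6 against EV, of the 343 genes chosen in C5 and C6; boxes span the quartiles, whiskers the 10th to 90th percentiles and the black line is the median. The medians are 0.431 in C1, 0.559 in C2, 0.13 in C3 and 0.241 in C4.

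The mRNAs of the other NPC subunits were at like levels in C4 and in C1 and C2. Protein is not part of these data. For NUP54, the study reports lower protein in the clones with mRNA as in control cells. Among the lists of the central channel, Y-complex, inner ring, membrane anchors, cytoplasmic filaments and nuclear basket, every member measured other than NUP58 differed by between −0.149 and 0.188, and the list medians lay between −0.0219 and 0.038, beside −0.00311 over all genes tested. NUP54 had 38.1 FPKM in C4 and 38.9 FPKM in C1 and C2 (difference −0.03, SE 0.107), and NUP62 67.1 and 65.1 FPKM (0.04, SE 0.105), both at an adjusted p of 0.9997 (limma). No other NPC gene on these lists had an unadjusted p under 0.05.

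None of the karyopherins had an adjusted p under 0.05. KPNA4, an importin alpha adaptor, had 21.0 FPKM in C4 and 22.3 FPKM in C1 and C2 (difference −0.09, SE 0.129). KPNB1, importin beta, had 270 and 266 FPKM (0.00, SE 0.222, with a sign that turned in several settings). TNPO1 and TNPO2, import receptors for RNA-binding proteins, differed by −0.19 (SE 0.162) and −0.15 (SE 0.153). The adjusted p was 0.9997 for each of these 4 (limma). The study, which measured RNA and protein, reports them as raised in most clones against WT. This comparison of C4 with C1 and C2 does not address that. WT libraries held 12.3–18.2 FPKM of KPNA4, 42.7–66.0 of TNPO1, 51.2–78.2 of TNPO2 and 151–324 of KPNB1. In C4 the ranges were 15.7–24.1, 52.7–74.7, 65.7–91.8 and 152–324 FPKM, all overlapping those of WT. Between libraries of the same replicate number, however, C4 was above WT each time for KPNA4, TNPO1 and TNPO2. KPNB1 was not, with 324 FPKM in both lines in replicate 3. By list, 5 of 6 importin alpha adaptors were lower in C4 (median −0.0566), 6 of 12 import receptors (0.00334) and 6 of 7 exportins (−0.117), and 0 of these 25 genes had an unadjusted p under 0.05.

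**Figure D5:**
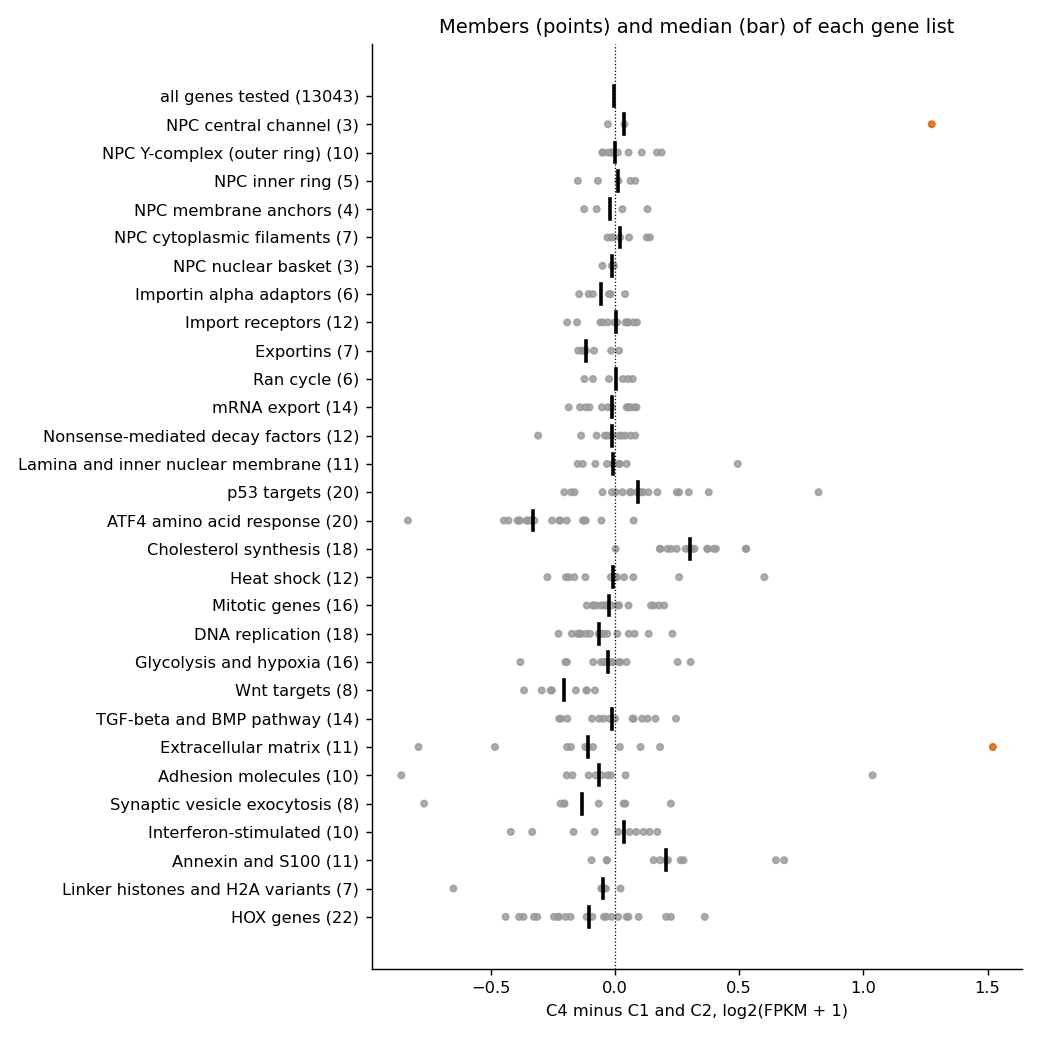
Difference C4 minus C1 and C2 on the log2(FPKM + 1) scale for the members of each gene list; points are genes, bars list medians, and orange marks genes with an adjusted p under 0.05. Orange points other than NUP58 are limited to SPARC in the extracellular matrix list.

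Of the other lists, 2 of the larger ones leaned one way in nearly all members without a gene past the adjusted threshold. All 18 genes of cholesterol synthesis were higher in C4, by 0.00 to 0.53 (median 0.304), 0 of 18 at an unadjusted p under 0.05, and 10 of 18 at that level with the replicate block, with 0 adjusted in either fit. Over all genes tested, the block gave 1070 at that level (8.2%), against 3.8% without it. HMGCS1, which makes the HMG-CoA of this pathway, had 114 FPKM in C4 and 81.6 FPKM in C1 and C2 (difference 0.53, SE 0.404, adjusted p = 0.9997, limma). Without the 4 libraries highest in ASNS, 17 of 18 were higher, with a median of 0.22. Of 20 targets of ATF4 and the amino acid response, 19 were lower (median −0.331), 0 at an unadjusted p under 0.05 and 7 with the block (8.2% of all genes). Without the 4 libraries highest in ASNS, which are 1 of 4 in C4 and 3 of 8 in C1 and C2, 12 of 20 were lower and the median was −0.0431. ASNS is itself on this list, so that choice of libraries is not separate from its members. Without replicate 2 of each clone, 19 of 20 were lower, with a median of −0.228.

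The lists of the nuclear envelope, chromatin and cell surface gave single genes with wider differences, none past the adjusted threshold except SPARC. LMNA, lamin A/C, had 48.2 FPKM in C4 and 34.2 FPKM in C1 and C2 (difference 0.49, SE 0.153, adjusted p = 0.802, limma). H2AFY2, the histone variant macroH2A2, had 7.82 and 12.9 FPKM with no overlap between the groups (−0.65, SE 0.122, adjusted p = 0.0826, and 0.061 with the block, limma). Of 22 HOX genes, 15 were lower (median −0.103), led by HOXA13 (−0.44) and HOXA11 (−0.37). Of 11 annexin and S100 genes, 8 were higher (median 0.206), with S100A11 at 0.68 and S100A6 at 0.65. All 8 Wnt targets were lower (median −0.205, 1 of 8 at an unadjusted p under 0.05), and 15 of 20 p53 targets higher (median 0.0943), with CDKN1A, the cell cycle inhibitor p21, at 0.82 (adjusted p = 0.9997, limma). Among 11 extracellular matrix genes (median −0.109) SPARC was higher, whereas FN1, fibronectin, and LAMB1, a laminin chain, had differences of −0.79 and −0.48 (each adjusted p = 0.9997, limma). CADM1 and ITGA4, both adhesion molecules, had 1.04 (adjusted p = 0.9997) and −0.86 (adjusted p = 0.456, limma). The medians of the remaining lists, covering the Ran cycle, mRNA export, nonsense-mediated decay, the lamina, heat shock, mitosis, DNA replication, glycolysis and hypoxia, TGF-beta and BMP, synaptic vesicle exocytosis, interferon, adhesion and linker histones, lay between −0.134 and 0.0361.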

How the data were processed

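RNA of 32 HAP1 and 15 HCT116 cultures was sequenced as cDNA, and 12 HAP1 libraries (C4, C1, C2; 4 each) were compared. Reads were trimmed of adaptors, checked with FastQC, aligned with STAR to GRCh38 and quantified with RSEM. The deposited values are FPKM that the authors made without further normalization, for 57507 genes; read counts and fragments behind a value are not known, and no 2 libraries were identical. Relative depth is the median ratio of values under 0.15 FPKM.

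FPKM were analysed as log2(FPKM + 1), which understates changes of low genes. All genes averaging 1 FPKM or more over the libraries of a fit entered limma 3.58.1 (R 4.3.3, eBayes with a trend, two-sided); p-values were adjusted by Benjamini-Hochberg, and "called" means an adjusted p under 0.05 and a fold over 2. The test was tried on simulated data. Classes against WT came from a fit of 32 libraries. Same-numbered libraries varied together in 8 of 8 pairs of C4 with C1 or C2 (r of deviations from clone means 0.135–0.615), and in the pairs of C1 with C2 except replicate 1 (−0.0552), although the labels name no shared day, so the number was also used as a block.

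Comparison, members and lists were chosen with earlier results of these data known. Named genes were NUP58, called genes without overlap, list members with an adjusted p under 0.05 or else 1 or 2 well-known ones, KPNA4, TNPO1, TNPO2, KPNB1 and NUP54, up to 5 genes per class against WT, and the 6 genes most and 6 least alike NUP58. Positions are from GENCODE 44, which holds 56417 of the gene identifiers, and promoters from RefSeq. Promoters and figures were handled in Python 3.11.15 (matplotlib 3.10.9, pandas 2.3.3, numpy 2.4.6). The 2 HCT116 libraries with conflicting labels and all other HCT116 libraries were not used here.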

Additional observations from a re-analysis of the deposited data

Results flagged for a closer look

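ADO, the gene running most opposite to NUP58 over the lines, had 27.9 FPKM in C4 replicate 2 while the next of the 4 C4 libraries had 18.5 FPKM and the lowest 16.7 FPKM. The gap was 0.843 of the range, over the critical value of 0.829 for 4 samples. Of 69 such groups examined it was the one past the value, and chance passes about 1 in 20. C4 replicate 2 is one of the 4 libraries high in ASNS.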

How the results depend on the processing

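The number of genes called, 8, became 3 at a mean FPKM of at least 5, 13 after scaling to a total of 1e+06 (TPM), 15 with the replicate block, 4 against C1, C2 and C3, 20 in the fit of 32 libraries, 4 with the unmoderated test and 4 (without C4 replicate 1 or 4) to 15 (without C1 replicate 2) on leaving out 1 library. Added after seeing the data, it was 17 without the 4 libraries highest in ASNS and 26 with clone means and the replicate block. At the study's thresholds, 28 became 56 with a pseudocount of 0.1, 7 at 5 FPKM, 53 as TPM, 61 against C2 alone, 24 to 49 on leaving out 1 library (49 without C4 replicate 2), 48 without the libraries numbered 2 and 48 without those highest in ASNS. The cause was not tested. The replicate block put 2 genes in the class C4 only and 3 in both; with EV, or WT and EV, as the reference, both held 2, neither 0 and C1 and C2 only 0. The share less shifted in C4 was 73.6% for genes chosen in C3, C5 and C6. Signs turned only for KPNB1, KPNA4 and NUP54, with main differences of −0.00207, −0.0889 and −0.0285. KPNB1 turned as TPM (0.003968), against C2 (0.03993), against C1, C2 and C3 (0.02824) and without the libraries numbered 2 (0.1155). On leaving out 1 library, KPNB1 ranged from −0.11 to 0.2516, the latter without C4 replicate 2. KPNA4 ranged from −0.1575 to 0.03888 on leaving out 1 library, the latter also without C4 replicate 2. NUP54 turned against C1, C2 and C3 (0.03382) and on leaving out 1 library (−0.1024 to 0.02191). Of 1804 values of named genes under the alternatives, 1600 kept direction and side of the threshold, 110 lost it, 79 passed it and 15 turned sign. No gene with an adjusted p under 0.05 lost it with the replicate block. Depth is known only in relative terms, so levels near 1 FPKM carry an error that cannot be stated.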

Other observations

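On chromosome X, genes from RPS6KA6 to CAPN6 (GRCh38, chrX:84058346-111270483), a stretch delimited after the values were seen, held TCEAL9 and 3 further genes past the study's thresholds in C4 against C1 and C2. Of its 66 tested genes 44 were higher in C4 (median 0.0714), and 13 had an unadjusted p under 0.05 (limma), 12 of them higher. The other 389 tested genes of chromosome X had a median of 0.0256, with 11 higher and 6 lower at that level. CAPN6, a calpain family member, had 33.3 ± 23.9 FPKM in C4 and 4.64 ± 5.12 FPKM in C1 and C2, with overlap between the groups (difference 2.62, adjusted p = 0.132, limma), and 11.3 FPKM in WT.

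All 13 protein-coding genes of the mitochondrial genome were lower in C4 than in C1 and C2 (median −0.281), 2 of them at an unadjusted p under 0.05, 7 with the replicate block and 0 after adjustment (limma). Over all genes these levels held 3.8% and, with the block, 8.2%. Without the 4 libraries highest in ASNS, 13 of 13 were lower (median −0.425), 8 at an unadjusted p under 0.05, and against C2 alone 12 of 13 (median −0.166), 0 at that level and 0 after adjustment. Their share of the summed FPKM was 4.52% ± 1.18 in C4, 5.56% ± 1.04 in C1 and 5.03% ± 0.52 in C2 (SD, n = 4), which overlapped, and 7.41% ± 1.54 in WT.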
